A study of Mus musculus with 8 samples.

Results

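A set of 10 Notch pathway genes was followed in RNA sequencing counts from mouse samples that the labels call adipocytes. They are the receptors Notch1, Notch2, Notch3 and Notch4, the ligands Jag1, Jag2 and Dll1, and the transcriptional targets Hes1, Hey1 and Heyl. The 10 genes were taken by symbol from a fixed list, out of 49671 genes in the files, and all 10 had enough counts to be tested, as did 14887 genes in all. The 8 samples fall into 2 groups of 4, labelled BMPR2 DELX and ROSA, the control. The labels give the first as a treatment and the series text calls the animals mutant mice, and Bmpr2 encodes the type II receptor for bone morphogenetic proteins (BMPs). Strain, age, sex, depot, the promoter behind any transgene, any inducing agent and whether each sample was a separate animal are not given in the sources used here. P-values therefore measure the spread between these samples, which may be technical.

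Notch receptors are single-pass membrane proteins that bind Jagged or Delta-like ligands on a neighbouring cell. Binding lets ADAM proteases and then gamma-secretase cut the receptor, and the freed intracellular domain enters the nucleus, joins the DNA-binding protein RBPJ and a Mastermind coactivator, and turns on genes of the HES and HEY families of basic helix-loop-helix repressors. In vessels, Notch1 and Notch4 are known from endothelial cells and Notch3 from pericytes and smooth muscle. In fat, Notch signalling is known as a regulator of progenitor differentiation.

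The libraries held 28799445 to 43684785 counts assigned to genes, and levels below are CPM, counts relative to 1000000 of the library, scaled by trimmed mean of M values (TMM) factors. Bmpr2, named in the mutant label, was at 211 ± 17.6 CPM in the mutant group and 197 ± 17.0 CPM in the controls (SD, n = 4), which overlapped (edgeR adjusted p 0.47). Counts of whole genes cannot show a missing exon. Markers of the labelled cell type were mostly very low. Of 10 adipocyte markers, 7 stayed under 1 CPM in every library, among them adiponectin (Adipoq) at no more than 0.169 CPM. The other 3 were tested, 2 with a positive and 1 with a negative difference, and 1 passed. That was the lipoprotein lipase gene Lpl, which rose (log2 0.58 ± 0.13, edgeR adjusted p 0.024). Its levels were 172 to 246 CPM in BMPR2 DELX and 119 to 160 CPM in ROSA. The adipogenic regulator Pparg had 12.4 to 26.3 CPM over the 8 libraries. The endothelial markers, 20 genes, were present and uneven. Their mean log2 level over the 19 tested genes, called the endothelial score here, was 3.58 in BMPR2 DELX 3 and 4.09 in ROSA 3, against 4.67 to 5.41 in the other 6 libraries. Their summed level ran from 859.7 to 2867 CPM in BMPR2 DELX and from 1435 to 2917 CPM in ROSA, 10 of the 19 had a positive difference and 0 passed the edgeR test, 1 of them with an unadjusted p below 0.05. In such bulk samples, fewer cells of a type and less RNA per cell cannot be told apart. ROSA 1 and ROSA 2 stood apart in another way. The summed level of 10 immediate early genes, which respond to acute stimuli, was 1242 and 1384 CPM in these 2 libraries and 251 to 292 CPM in the other 6.

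Each difference is given as log2 of BMPR2 DELX over ROSA ± its standard error. Calls are at an adjusted p below 0.05 in the quasi-likelihood test of edgeR, where the Benjamini-Hochberg adjustment ran over all 14887 genes. Of the 10 genes, 2 rose in BMPR2 DELX, the target Heyl and the receptor Notch3, 0 fell and 8 did not pass. Over all genes tested 9.10% were called, 3.96% higher and 5.15% lower, and a list of 10 genes is too short to set its share against these. The median difference of the 10 genes was 0.26, against 0.0045 over all genes tested, and 5 had a positive and 5 a negative sign. With so even a split the median moved easily. It was 0.17 to 0.46 without 1 library, 0.55 without ROSA 1 and ROSA 2, and -0.07 under a filter at 1 CPM, which left out Dll1. Heyl and Notch3 were also the 2 genes without overlap between the groups, and 18.0% of all genes tested had none, 8.32% with BMPR2 DELX higher.

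**Figure D1:**
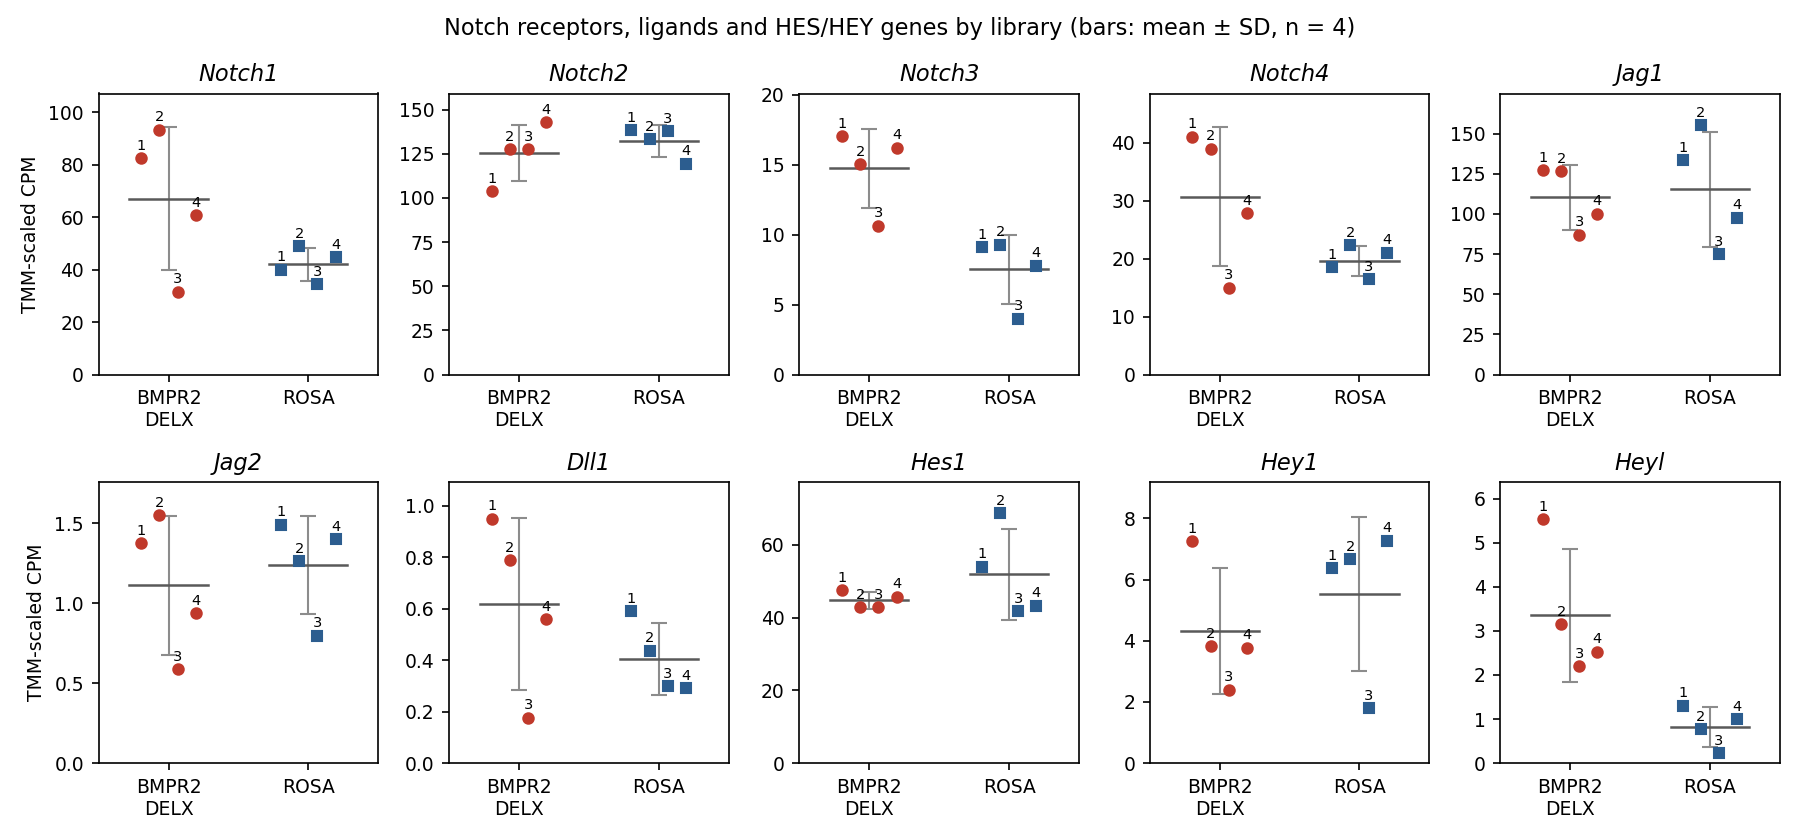
Level of each of the 10 genes in TMM-scaled CPM on a linear axis from 0, with 1 point per library numbered by replicate, and the mean and SD of each group of 4. The groups are apart for Notch3 and Heyl, and BMPR2 DELX 3 lies lowest of its group for Notch1, Notch3, Notch4, Jag1, Jag2, Dll1, Hey1 and Heyl.

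Among promoters, the sequences before Notch3 and before Nrarp are shown, since Notch3 rose and Nrarp, a known Notch target, proved to be the gene whose profile over the libraries was nearest to that of Heyl. Of the 10 genes, 7 matched RefSeq's promoter table (GRCm38.p6), with 8 windows. The targets Hes1, Hey1 and Heyl had no window there. Each sequence below is the 250 bases before the transcription start, 5′ to 3′ on the gene's own strand, chr17:32166891-32167140 on the minus strand for Notch3 and chr2:25180508-25180757 on the plus strand for Nrarp. Capitals mark the GC-box letters GGGCGG on either strand.
Notch3: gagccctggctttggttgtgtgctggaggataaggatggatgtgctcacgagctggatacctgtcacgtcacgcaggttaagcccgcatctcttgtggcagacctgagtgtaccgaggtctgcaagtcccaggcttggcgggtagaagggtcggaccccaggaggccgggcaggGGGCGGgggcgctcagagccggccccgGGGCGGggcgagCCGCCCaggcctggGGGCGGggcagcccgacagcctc
Nrarp: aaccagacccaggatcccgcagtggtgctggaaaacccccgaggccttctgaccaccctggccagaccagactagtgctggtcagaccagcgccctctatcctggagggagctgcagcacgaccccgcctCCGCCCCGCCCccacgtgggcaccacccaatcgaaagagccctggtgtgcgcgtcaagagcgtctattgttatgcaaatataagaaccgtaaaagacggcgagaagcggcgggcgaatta
The window of Notch3 held GGGCGG at 4 places and that of Nrarp at 2 places that overlap by a base, and 4 of the 8 member windows held it, against 32.7% of all 32851 windows of this length. The letters TGGGAA, the core bound by RBPJ, were searched on both strands as well. They were in 0 of the 8 member windows and not in that of Nrarp, against 21.6% of all windows. That says only that these letters are not within the 250 bases of these windows, and the targets Hes1, Hey1 and Heyl were not searched. Annotated exons reach into windows of Notch1, Notch2, Notch4, Jag1, Jag2 and Dll1.

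The receptors differed widely in level. Notch2, which was spread evenly over the libraries, had the highest level per length of the 4, at 11.9 ± 1.16 CPM per kilobase of exon over the 8 libraries (SD). Notch1 followed at 3.83 ± 1.59, Notch4 at 3.12 ± 1.24 and Notch3 at 1.38 ± 0.565 CPM per kilobase. Notch2 exceeded Notch1 in 8 of 8 libraries with no overlap of their ranges, and Notch1 exceeded Notch4 in 8 of 8, though the ranges of that pair overlapped.

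Notch3 (ENSMUSG00000038146, GRCm38 chromosome 17, 32120820 to 32166852, minus strand) is the receptor best known from vascular mural cells. It had 17.1, 15.0, 10.7 and 16.2 CPM in BMPR2 DELX 1 to 4 and 9.11, 9.29, 3.99 and 7.79 CPM in ROSA 1 to 4. All 4 BMPR2 DELX libraries lay above all 4 ROSA libraries, and BMPR2 DELX 3 and ROSA 3 were the lowest of their groups. The group levels were 14.7 ± 2.85 and 7.55 ± 2.46 CPM (SD, n = 4), a log2 fold change of 0.96 ± 0.25 (SE), or 1.95-fold, with an edgeR adjusted p of 0.046. That call is close to the threshold. It was kept without BMPR2 DELX 3 and without ROSA 3, and lost without BMPR2 DELX 1, BMPR2 DELX 2, BMPR2 DELX 4, ROSA 1, ROSA 2 or ROSA 4, with adjusted p of 0.073 to 0.101 and log2 fold changes over the 8 such fits of 0.75 to 1.09. An antisense gene, Gm17276, overlaps Notch3 on the other strand, and with the unstranded count column Notch3 still passed (0.99 ± 0.23, adjusted p 0.028).

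Of 11 mural markers, 1 had a positive and 7 a negative difference among the 8 tested, and their summed level was 9431 to 12860 CPM in BMPR2 DELX and 11002 to 14585 CPM in ROSA. The proteoglycan gene Cspg4, another pericyte marker, fell from 116 ± 23.6 to 56.5 ± 18.2 CPM (log2 fold change -1.04 ± 0.23, edgeR adjusted p 0.030). The marker with a positive difference was Pdgfrb, at 618 ± 97.9 CPM for the mutants against 509 ± 74.5 CPM for the controls (SD, n = 4). Its groups overlapped and it did not pass (log2 fold change 0.28 ± 0.14, edgeR adjusted p 0.22). Of the 11 markers, 3 were under 1 CPM in every library, among them the pericyte gene Rgs5. Of 9 macrophage markers, 4 were tested and all 4 had positive differences (median 1.11), but only Cd68 passed (0.72 ± 0.16, edgeR adjusted p 0.024). The other 5 stayed under 1 CPM in every library. The summed level of the 9 was 37.4 to 70.1 CPM in BMPR2 DELX and 25.0 to 36.4 CPM in ROSA, which do not overlap but come close. Much of it was Csf1r, whose groups overlapped, at 21.1 to 38.1 and 19.5 to 26.6 CPM. Of 8 epithelial markers, 6 were tested and 5 had positive differences (median 2.16). Pax8, a kidney and oviduct epithelial factor, rose (3.38 ± 0.87, edgeR adjusted p 0.047). Its groups overlapped, since BMPR2 DELX 4 at 0.290 CPM lay below ROSA 2 at 0.315 CPM. The marker with a negative difference, Krt19, had groups that did not overlap, with means of 12.1 CPM for the mutants against 26.4 CPM for the controls. It just missed the threshold (-1.12 ± 0.30, edgeR adjusted p 0.052). The summed levels of the 8 markers overlapped, at 22.8 to 55.5 and 32.3 to 46.9 CPM. Of 8 fibroblast markers, 7 were tested, 5 with a positive and 2 with a negative difference, and 0 passed. Their summed levels overlapped, at 9077 to 13391 CPM in BMPR2 DELX and 8824 to 11029 CPM in ROSA. The part of these cell types in the differences of Notch3 and Heyl was not tested.

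Notch1 (ENSMUSG00000026923, GRCm38 chromosome 2, 26457903 to 26516663, minus strand), the receptor required for vessel formation, had 82.4, 93.2, 31.6 and 60.8 CPM in BMPR2 DELX 1 to 4 and 40.0, 48.9, 34.5 and 44.9 CPM in ROSA 1 to 4. In BMPR2 DELX, 3 of 4 libraries lay above every control, and BMPR2 DELX 3 lay below every control. The log2 fold change was 0.67 ± 0.30 with a 95% interval of -0.03 to 1.37, and the edgeR adjusted p of 0.21 did not pass.

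Notch4 (ENSMUSG00000015468, GRCm38 chromosome 17, 34564268 to 34588503, plus strand), a receptor found mainly in endothelium, had its lowest level in BMPR2 DELX 3 as well. Its levels were 41.1, 39.0, 15.0 and 27.8 CPM in BMPR2 DELX 1 to 4 and 18.6, 22.3, 16.5 and 21.0 CPM in ROSA 1 to 4. That library lay below every control and the other 3 above every control. Its log2 fold change was 0.65 ± 0.29 (95% interval -0.01 to 1.30), with an edgeR adjusted p of 0.20 that did not pass.

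BMPR2 DELX 3, the library below the controls for both receptors, was also the one with the lowest endothelial score. With the endothelial score as a covariate, in a fit that called 11.0% of all genes tested, 4 of the 10 Notch genes passed as higher. Notch1 then had a log2 fold change of 0.65 ± 0.11 (edgeR adjusted p 0.0082) and Notch4 one of 0.63 ± 0.11 (adjusted p 0.0095), so the estimates stayed near those without the covariate and the standard errors shrank. Notch3 had 1.05 ± 0.17 (adjusted p 0.0058) and Heyl 2.11 ± 0.34 (adjusted p 0.0063). The same 4 genes passed without BMPR2 DELX 3, where Notch1 had 0.91 ± 0.16 and Notch4 0.87 ± 0.15 (edgeR adjusted p 0.018 and 0.016), in a fit that called 5.76% of the genes. Leaving out the lowest BMPR2 DELX library for Notch1 and Notch4 raises their differences by its nature. The 4 genes also passed without both BMPR2 DELX 3 and ROSA 3, in a fit chosen after seeing the data that called 4.22% of the genes. Notch1 then had 0.82 ± 0.15 and Notch4 0.80 ± 0.15 (edgeR adjusted p 0.028 for both). In the 7 other fits without 1 library, Notch1 and Notch4 did not pass.

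**Figure D2:**
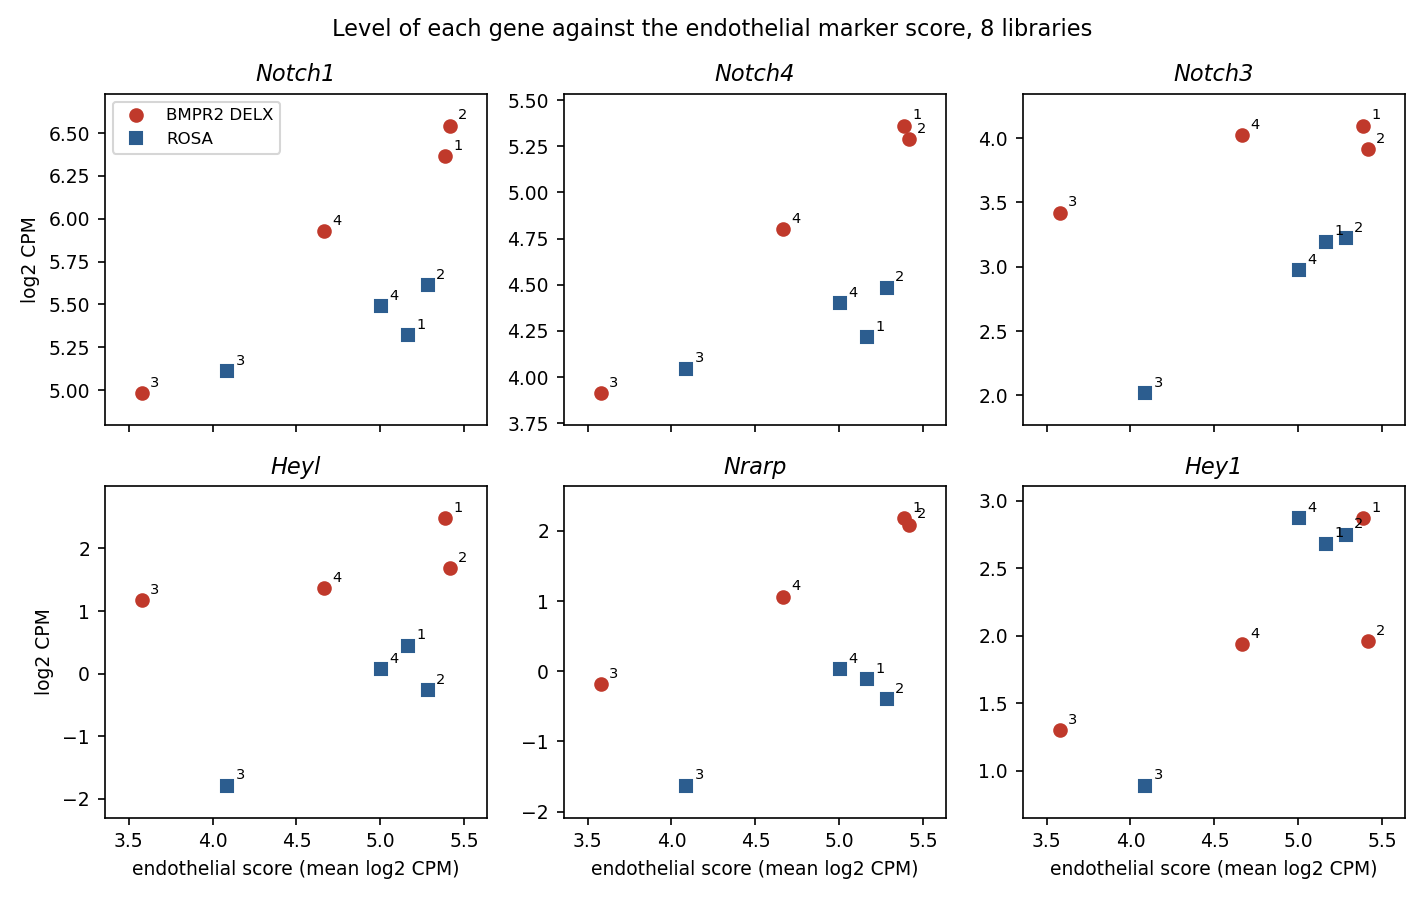
Level of 6 genes (log2 CPM, vertical axis) against the endothelial score (mean log2 CPM of 19 markers, horizontal axis) in 8 libraries numbered by replicate. BMPR2 DELX 3 and ROSA 3 stand at the left with scores of 3.58 and 4.09, and the BMPR2 DELX libraries 1, 2 and 4 lie above the ROSA libraries in the panels of Notch1, Notch4, Notch3, Heyl and Nrarp.

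A library's log2 level minus its endothelial score, a measure added after seeing the data, gave no overlap between the groups for 2 of the 10 genes, Notch3 and Heyl, nor for Nrarp, and 1.28% of all genes tested had none on this measure. Without the subtraction that share was 18.0%, and Notch3 and Heyl did not overlap then either. Subtracting an uneven score adds its spread to genes that do not follow it, so the 1.28% is no yardstick for these genes. For Notch3 the measure was -1.50 to -0.16 in BMPR2 DELX and -2.07 to -1.97 in ROSA. For Notch1 it was 0.98 to 1.40 in BMPR2 DELX against 0.16 to 1.02 in ROSA, where ROSA 3 alone reached into the range of BMPR2 DELX. For Notch4 the values were -0.13 to 0.33 against -0.95 to -0.04, and ROSA 3 was again the control that overlapped.

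Notch2 (ENSMUSG00000027878, GRCm38 chromosome 3, 98013527 to 98150361, plus strand), a broadly expressed receptor, had 104, 127, 128 and 143 CPM in BMPR2 DELX 1 to 4 and 139, 133, 138 and 119 CPM in ROSA 1 to 4. The groups overlapped, and the log2 fold change of -0.08 ± 0.10 had a 95% interval of -0.29 to 0.14 and an edgeR adjusted p of 0.65. Of the summed receptor level per kilobase, Notch2 made up 54.0 ± 11.6% in BMPR2 DELX and 66.1 ± 4.59% in ROSA (SD, n = 4, two-sided exact permutation p 0.14). The share of Notch3 was 8.28 ± 0.901% and 4.98 ± 1.48%, with no overlap. Its two-sided exact permutation p was then 0.029, the smallest that 4 against 4 allows. After adjustment over the 4 receptor shares it was 0.11. The share is built from the Notch3 levels given above, so it is not separate evidence of their difference.

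**Figure D3:**
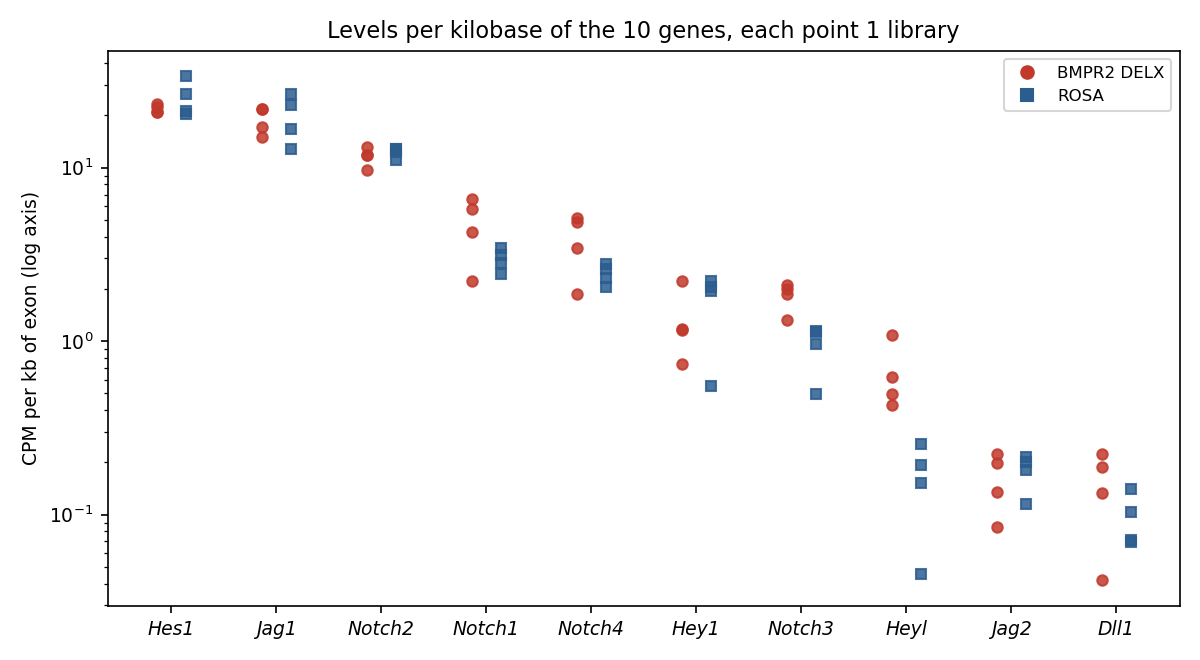
Level of the 10 genes in CPM per kilobase of exon (log axis), ordered by the mean over the 8 libraries, each point 1 library. Hes1, Jag1 and Notch2 lie highest, at means of 23.7, 19.4 and 11.9, and Jag2 and Dll1 lowest, at 0.169 and 0.121.

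Of the ligands, Jag1 dominated. Its level over the 8 libraries was 19.4 ± 4.63 CPM per kilobase, against 0.169 ± 0.0510 for Jag2 and 0.121 ± 0.0626 for Dll1. Jag1 (ENSMUSG00000027276, GRCm38 chromosome 2, 137081456 to 137116644, minus strand), the Jagged ligand of smooth muscle and endothelium, had 127, 127, 87.0 and 100.2 CPM in BMPR2 DELX 1 to 4 and 134, 155, 75.0 and 97.8 CPM in ROSA 1 to 4. All BMPR2 DELX values lay within the range of ROSA. The log2 fold change of -0.07 ± 0.23 had a 95% interval of -0.59 to 0.46 (edgeR adjusted p 0.89).

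Jag2 (ENSMUSG00000002799) had 20 to 55 counts per library, which is 0.587 to 1.55 CPM in BMPR2 DELX and 0.798 to 1.49 CPM in ROSA, and its interval of -0.88 to 0.55 (log2) left room for a change in either direction. Dll1 (ENSMUSG00000014773), a Delta-like ligand, had 6 to 29 counts per library. It was highest in BMPR2 DELX 1 and BMPR2 DELX 2, at 0.949 and 0.789 CPM, and lowest in BMPR2 DELX 3, at 0.176 CPM, and the controls lay between 0.292 and 0.590 CPM. The log2 fold change of 0.59 ± 0.46 had a 95% interval of -0.43 to 1.62 and did not pass (edgeR adjusted p 0.44). Dll4, the main Delta-like ligand of endothelium, fell below the count filter, with 7, 17, 3 and 3 counts in BMPR2 DELX 1 to 4 and 3, 3, 2 and 1 counts in ROSA 1 to 4.

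The 3 target genes did not move together. Heyl rose, Hes1 and Hey1 had negative differences that did not pass, and their levels spanned a wide range, with Hes1 at 23.7 ± 4.50, Hey1 at 1.51 ± 0.682 and Heyl at 0.409 ± 0.332 CPM per kilobase over the 8 libraries.

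Heyl (ENSMUSG00000032744, GRCm38 chromosome 4, 123233556 to 123249875, plus strand), a HEY repressor known from vascular smooth muscle, had 5.53, 3.16, 2.20 and 2.53 CPM in BMPR2 DELX 1 to 4, from 169, 112, 75 and 113 counts. In ROSA 1 to 4 it had 1.31, 0.777, 0.233 and 0.992 CPM, from 42, 32, 7 and 34 counts. The lowest BMPR2 DELX library lay above the highest ROSA library. The mean rose from 0.827 ± 0.452 to 3.35 ± 1.50 CPM (SD, n = 4), a log2 fold change of 2.00 ± 0.45, or 4.01-fold, with an edgeR adjusted p of 0.026. The call was lost without BMPR2 DELX 1, BMPR2 DELX 2 or ROSA 2 (adjusted p 0.051, 0.060 and 0.085) and kept without each of the other 5 libraries, with log2 fold changes of 1.67 to 2.31 over the 8 fits. Without any filter on low counts, where 28614 genes shared the adjustment, neither Heyl (adjusted p 0.052) nor Notch3 (0.13) passed, at log2 fold changes of 2.02 and 0.98. Nor did they pass without ROSA 1 and ROSA 2 (2.43 and 1.33, edgeR adjusted p 0.12 and 0.091).

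Hes1 (ENSMUSG00000022528, GRCm38 chromosome 16, 30064384 to 30067796, plus strand) is the classical Notch target, which other signals also induce. It had 47.5, 42.8, 42.8 and 45.7 CPM in BMPR2 DELX 1 to 4, a narrow range, and 54.0, 68.7, 41.7 and 43.3 CPM in ROSA 1 to 4. ROSA 1 and ROSA 2, the libraries with high immediate early genes, were the high ones, and the other controls lay with BMPR2 DELX. The log2 fold change was -0.22 ± 0.15 (95% interval -0.54 to 0.11, edgeR adjusted p 0.38), and it was 0.089 without ROSA 1 and ROSA 2.

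Hey1 (ENSMUSG00000040289, GRCm38 chromosome 3, 8663359 to 8667256, minus strand), a target in endothelium that BMP signals can also induce, had 7.27, 3.83, 2.41 and 3.78 CPM in BMPR2 DELX 1 to 4 and 6.37, 6.67, 1.80 and 7.27 CPM in ROSA 1 to 4. BMPR2 DELX 1 lay with the high controls, and ROSA 3, a library with a low endothelial score, was the lowest of all 8. Its log2 fold change was -0.37 ± 0.45, with a wide 95% interval of -1.39 to 0.66 (edgeR adjusted p 0.65). With the endothelial score as a covariate it was -0.23 and did not pass.

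**Figure D4:**
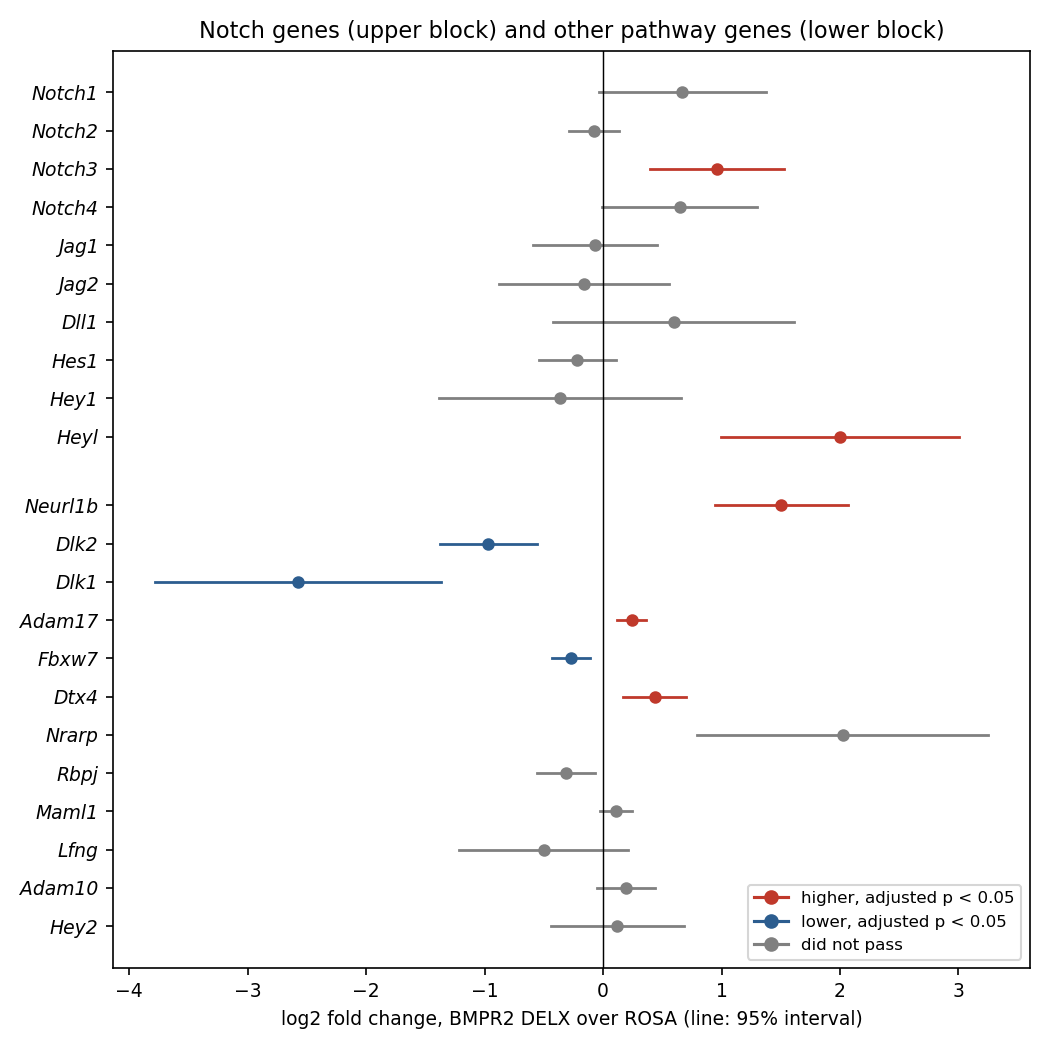
Log2 fold change of BMPR2 DELX over ROSA with its 95% interval for the 10 genes (upper block) and for the other pathway genes named in the text that were tested (lower block), coloured by the edgeR call. Heyl, Notch3, Neurl1b, Adam17 and Dtx4 were called higher, and Dlk1, Dlk2 and Fbxw7 lower.

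By the root mean square difference of log2 levels centred on each gene's mean, over 8 libraries and 11711 genes, the gene nearest to Heyl was Nrarp (0.50), followed by the guanine deaminase gene Gda (0.52) and the endothelin A receptor gene Ednra (0.55). This distance contains the difference between the groups. Nearest to Hey1 were Prelp, a leucine-rich matrix protein gene (0.20), Hsd11b1, which encodes a glucocorticoid-activating enzyme (0.31), and Adgrl4, an endothelial adhesion receptor gene (0.33). Nearest to Dll1 were Dock8 (0.20), the endothelial surface gene Cd93 (0.20) and Add2 (0.21). Heyl, Hey1 and Dll1 were the 3 of the 10 genes with the largest SD over the libraries.

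Of 56 other genes of the pathway, 48 were tested, 3 rose, 3 fell and 42 did not pass, against 9.10% called over all genes, so the share called was near that of all genes tested. Their median difference was 0.03. The gamma-secretase subunits (7 genes), the corepressors (7) and the nuclear complex around RBPJ (9) had 0 called in each group in the main edgeR fit. In the nuclear complex 3 genes had no overlap between BMPR2 DELX and ROSA, and 4 had an unadjusted edgeR p below 0.05. Both counts were 0 for the subunits and the corepressors. Over all 14887 genes tested, 18.0% had no overlap and 3920 had such a p. With upper-quartile factors, without a count filter or with DESeq2, the nuclear complex had calls. DESeq2 called 10 of 55 genes of the list (18.2%) and 7.92% of the 28614 genes it fitted. Those 28614 take in many low-count genes that the edgeR filter, which kept 14887, left out. Of the list, 48 of 56 passed that filter, so the DESeq2 shares rest on unlike sets of genes and cannot be compared.

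Neurl1b, a ubiquitin ligase that acts on Notch ligands, rose. It had 7.53, 5.53, 7.34 and 4.98 CPM in BMPR2 DELX 1 to 4 and 1.77, 1.48, 2.43 and 3.27 CPM in ROSA 1 to 4, with no overlap. The log2 fold change was 1.50 ± 0.25 (edgeR adjusted p 0.0092), and it passed in each of the 8 fits without 1 library but not without both ROSA 1 and ROSA 2 (1.16, adjusted p 0.061). Unlike Notch1 and Notch4, it was not low in BMPR2 DELX 3.

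Dlk2 and Dlk1 encode Delta-like proteins without the motif that activates Notch, and both fell. Dlk2 had 1.21 to 1.83 CPM in BMPR2 DELX and 2.56 to 3.57 CPM in ROSA (log2 fold change -0.97 ± 0.18, edgeR adjusted p 0.014) and passed in all 8 fits without 1 library but not without both ROSA 1 and ROSA 2 (-0.84, adjusted p 0.12). Dlk1, a preadipocyte factor, had 0.112 to 0.470 CPM and 0.765 to 3.01 CPM, from 5 to 16 counts per BMPR2 DELX library. ROSA 1 and ROSA 2, the libraries with high immediate early genes, were its highest, at 3.01 and 1.94 CPM. Its log2 fold change was -2.58 ± 0.54 (edgeR adjusted p 0.021), and the call was lost without BMPR2 DELX 1, BMPR2 DELX 2 or ROSA 2 (adjusted p 0.051 to 0.063). Without both ROSA 1 and ROSA 2 it was -1.57 (edgeR adjusted p 0.17).

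The other calls were small and near the threshold. Adam17, an ADAM protease, rose by 0.24 ± 0.05 (edgeR adjusted p 0.027, lost without BMPR2 DELX 2, BMPR2 DELX 3, ROSA 1, ROSA 2 or ROSA 3, at 0.059 to 0.072). Dtx4, a Deltex ubiquitin ligase, rose by 0.44 ± 0.12 (adjusted p 0.048, kept only without ROSA 1 among the 8 fits, at 0.013). Fbxw7, whose ubiquitin ligase degrades the Notch intracellular domain, fell by 0.27 on the log2 scale (SE 0.07, adjusted p 0.047, lost without each library, at 0.054 to 0.150).

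Nrarp, a feedback inhibitor induced by Notch, had 4.48, 4.20, 0.822 and 2.03 CPM in BMPR2 DELX 1 to 4 and 0.870, 0.704, 0.266 and 0.963 CPM in ROSA 1 to 4. BMPR2 DELX 3 lay within the range of the controls and the other 3 above it. The log2 fold change was 2.02 ± 0.55, and the edgeR adjusted p of 0.051 just missed the threshold. With the endothelial score as a covariate it was 2.03 ± 0.22 (edgeR adjusted p 0.0014), and without BMPR2 DELX 3 it was 2.33 ± 0.40 (0.016). An antisense gene, Gm38287, overlaps it, and with the unstranded column the value was 1.57 ± 0.84 (adjusted p 0.27).

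Other named genes of the pathway did not pass. Rbpj, the DNA-binding partner of all 4 receptors, had 28.4 to 33.4 CPM in BMPR2 DELX and 33.7 to 45.9 CPM in ROSA, groups that did not overlap (log2 fold change -0.31 ± 0.11, edgeR adjusted p 0.10). Its coactivator Maml1 had 0.11 ± 0.06 (adjusted p 0.29), the main receptor protease Adam10 0.19 ± 0.11 (adjusted p 0.30) and Hey2 0.12 ± 0.25 (adjusted p 0.80), each as a log2 fold change. The glycosyltransferase gene Lfng, whose product tunes ligand choice, had 13.1 and 18.6 CPM in ROSA 1 and ROSA 2, but 6.58 and 6.74 CPM in ROSA 3 and ROSA 4 and 7.40 to 8.57 CPM in BMPR2 DELX. Hes5 had 0 counts in every library, which allows up to 3 counts, or 0.0687 to 0.104 CPM before TMM scaling, a limit for counting error only.

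**Figure D5:**
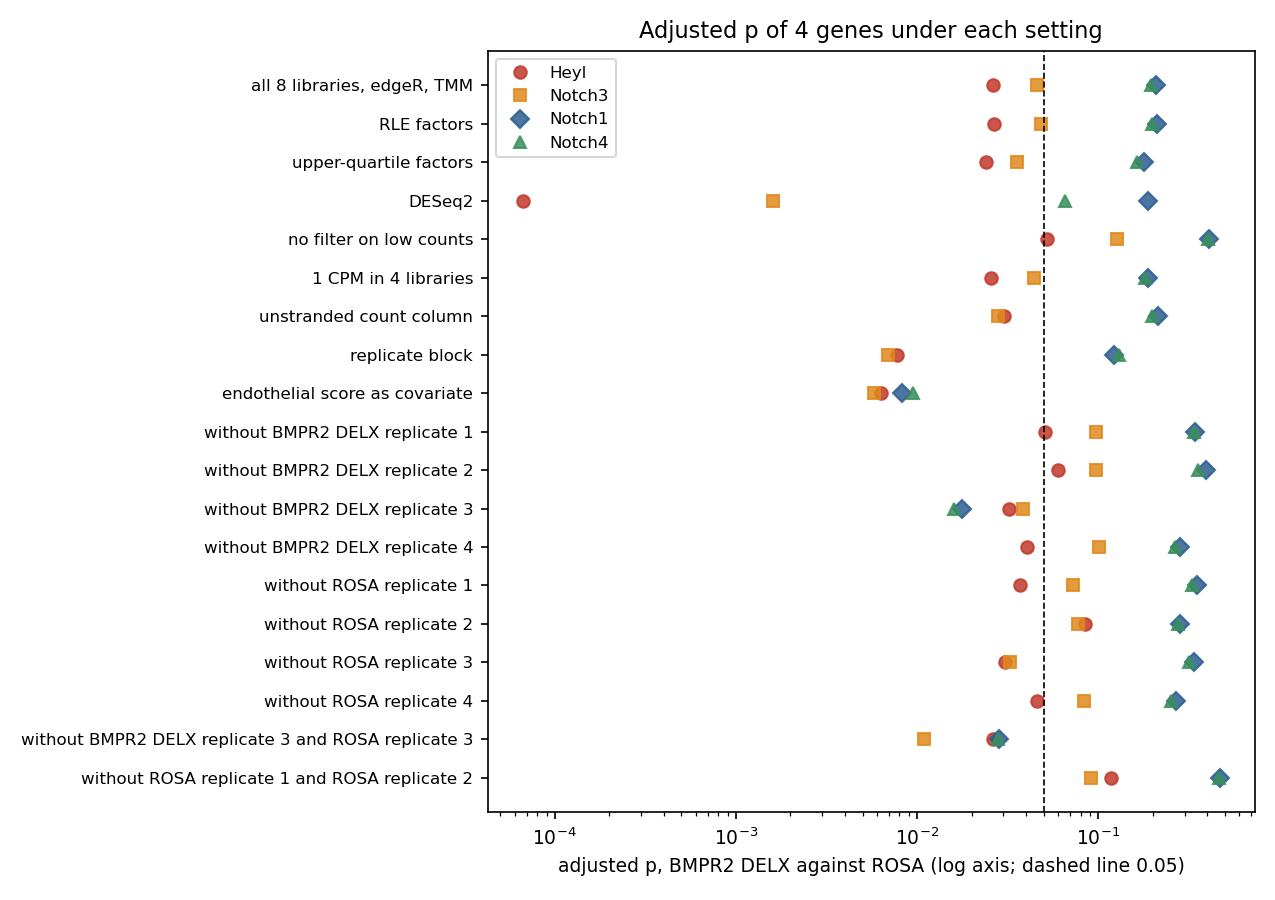
Adjusted p of Heyl, Notch3, Notch1 and Notch4 (log axis) for the fit on all 8 libraries and 18 other settings, with the threshold of 0.05 as a dashed line. Notch1 and Notch4 lie left of the line with the endothelial score as a covariate (0.0082 and 0.0095), without BMPR2 DELX 3, and without both BMPR2 DELX 3 and ROSA 3, and right of it elsewhere.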

How the data were processed

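Polyadenylated RNA of 8 samples was sequenced. The deposited files hold raw read counts per Ensembl gene, not normalized by the authors as far as the values show. GRCm38, STAR 2.5.2b and HTSeq are named, without role or order, per the submitters' processing notes. The annotation, read layout and filters are not given in the sources used here. The opposite-strand column, with 93.4% of strand-assigned counts, was used without the 4 lines that name no gene, which took 14.7% to 22.0% of a library's reads. GENCODE M21 (GRCm38) gave symbols, positions and exon lengths for 49326 gene IDs.

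Genes were kept with filterByExpr, scaled by TMM and tested with edgeR 4.0.16 (glmQLFit, robust) in R 4.3.3, with DESeq2 1.42.0 as an alternative. A standard error is the log2 fold change over the square root of F. Log2 CPM used a prior count of 2, and exact permutation tests used scipy 1.17.1. The fit was tested on simulated data. Totals of 28799445 to 43684785 counts set the precision. Alternatives were other factors, filters and count columns, the replicate number as a block, the endothelial score as a covariate and each library left out. Leaving out pairs of libraries was chosen after seeing the data.

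The genes and lists were chosen with earlier results of these data known. Named were the 10 genes, called genes of the pathway list, 7 fixed genes of it, the 3 genes nearest to each of the 3 most variable members, and at most 3 genes of each marker list, these chosen after their values were seen, as were the immediate early genes. All 8 samples entered the main comparison.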

Additional observations from a re-analysis of the deposited data

Results flagged for a closer look

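In 46 groups of 4 libraries checked, 3 values stood far from the rest of their group. Hey1 in ROSA 3 was 1.80 CPM, against 6.37 to 7.27 CPM in the other ROSA libraries. Rbpj in BMPR2 DELX 1 was 33.4 CPM, against 28.4 to 28.8 CPM in the other BMPR2 DELX libraries. Rbpj in ROSA 3 was 45.9 CPM, against 33.7 to 35.0 CPM in the other controls. Chance alone gives such a gap in about 1 in 20 groups.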

How the results depend on the processing

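Among the 10 Notch genes, 2 were called with relative log expression or upper-quartile factors, DESeq2, a filter at 1 CPM, the unstranded column and the replicate block. The count was 0 without a filter on low counts (2 with an unadjusted edgeR p below 0.05, and 2 called by DESeq2), 4 with the endothelial score as a covariate, 4 without BMPR2 DELX 3 and ROSA 3, 0 without ROSA 1 and ROSA 2 (2 with an unadjusted p below 0.05), and 0 to 4 without 1 library. Of the other pathway genes, 6 were called, 10 by DESeq2, 1 without ROSA 1 and ROSA 2, and 2 to 5 without 1 library. Over all genes 1355 were called (589 higher and 766 lower), 2267 by DESeq2, 734 higher and 606 lower with upper-quartile factors, 631 without BMPR2 DELX 3 and ROSA 3, 172 without ROSA 1 and ROSA 2, and 477 (without ROSA 2) to 1266 without 1 library. The cause of these changes was not tested. Signs reversed, never with a call, without 1 library for Notch2 (-0.14 to 0.011, positive without BMPR2 DELX 1), Jag1 (-0.22 to 0.12, positive without BMPR2 DELX 3, ROSA 1 or ROSA 2), Jag2 (-0.37 to 0.046, positive without BMPR2 DELX 3) and Hey2 (-0.078 to 0.26, negative without BMPR2 DELX 1). Without ROSA 1 and ROSA 2 together, Jag1 was 0.37, Jag2 0.022, Hes1 0.089 (-0.31 to -0.043 without 1 library) and Lfng 0.27 (-0.69 to -0.14). Jag1 was 0.0098 with the endothelial covariate. Correlations of deviations were 0.005 to 0.24 for same-numbered libraries and -0.24 to 0.18 for the others. The highest was that of BMPR2 DELX 3 and ROSA 3, while BMPR2 DELX 1 was closer to ROSA 2 (0.18) than to ROSA 1 (0.005). The labels state no pairing and the numbers were not taken as pairs, but these values cannot tell whether they mark pairs. With the replicate block 1245 genes were called. Notch3 then had 1.01 (log2, edgeR adjusted p 0.0069) and Heyl 2.05 (0.0077), and Nrarp passed (edgeR adjusted p 0.011). Adam17 (0.066), Fbxw7 (0.079) and Dtx4 (0.052) then did not pass, so 4 of the other pathway genes were called, not 6. Dll1 had 6 to 29 counts per library and Dll4 1 to 17.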
